A study of Mus musculus with 4 samples.

Results

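Homeobox factors that lie outside the Hox clusters were followed in 4 mouse tumours. The 91 genes were taken by name from 24 families (Lhx, Nkx, Dlx, Pax, Irx, the sine oculis genes, Pitx, Otx, Emx, Gbx, Msx, Tlx, Meis, Pbx, Vax, Alx, Barhl, Barx, Lmx, Isl, Phox, Prrx, Onecut and Cux) out of 46946 genes counted. Nkx2-2 and Nkx6-2, both of the oligodendrocyte lineage, were left out. Per the sample labels all 4 tumours form 1 untreated group, PDGFB K27M, of genotype K27M, and grew from mouse neural stem cells carrying PDGF and the K27M change of histone H3. The series text speaks instead of injected DIPG (diffuse intrinsic pontine glioma) cells with mutant H3.3, and the files do not settle which holds. No promoter or vector, site of the tumour, age or strain is given in the labels, and no normal brain or second genotype is among the samples used here. The libraries keep the names T14, T10, T8 and TUN of the deposited table and held 21664889 to 24369339 counts.

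A homeobox gene encodes a transcription factor whose homeodomain grips a short AT-rich DNA site, often built around TAAT. In the embryo these factors divide the neural tube into regions along its length and from back to belly, and a neuron often goes on expressing the factors of the region it came from. Many of their genes lie in broad domains of H3K27 trimethylation, the mark laid by the PRC2 complex that the K27M change of histone H3 blocks. Meis and Pbx proteins, the group here called TALE cofactors, act beside Hox and other homeodomain proteins as DNA-binding partners. Their genes are expressed widely, whereas most other families are restricted to a region or a cell type.

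Levels are given as CPM, counts scaled to library size, to follow a gene between tumours, and as RPKM, CPM per kilobase of exon, to compare genes. A gene was called expressed at CPM 1 or more in all 4 tumours, silent below 1 in all 4 and mixed otherwise. Of the 91 factors 20 were expressed (22%), 28 were mixed (30.8%) and 43 were silent (47.3%). Over all genes of the table the shares were 28.2% expressed, 3.9% mixed and 67.9% silent. Over 20664 protein-coding genes they were 60.4%, 6.24% and 33.4%. The silent share of the factors was above that of protein-coding genes, as was the mixed share. Expressed members occurred in 11 of the 24 families, and Barx, Isl, Pitx and Vax held silent members only. CPM 1 was reached by 42 of the 91 factors in T14 and 44 in T10, but by 25 in T8 and 24 in TUN. Among protein-coding genes the shares at CPM 1 in the same order were 64.5%, 65.1%, 61.9% and 62.2%.

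Promoter sequences are shown for 4 factors that stand for the main kinds of pattern, picked after their values were known. Prrx1 had the highest mean RPKM, Lhx2 was a variable factor present in every tumour, Lhx1 had the smallest p between tumours, and Nkx2-5, a heart factor, was silent. Each run covers 300 bases, from 250 before to 50 after the most upstream listed start, in RefSeq on GRCm38.p6 (the mm10 build). Capitals mark each CpG.
Prrx1: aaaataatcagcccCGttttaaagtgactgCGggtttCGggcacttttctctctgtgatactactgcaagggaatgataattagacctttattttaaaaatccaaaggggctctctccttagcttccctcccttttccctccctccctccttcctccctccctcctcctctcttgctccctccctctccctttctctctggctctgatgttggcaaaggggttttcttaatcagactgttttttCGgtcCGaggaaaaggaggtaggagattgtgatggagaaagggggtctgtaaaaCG
Lhx2: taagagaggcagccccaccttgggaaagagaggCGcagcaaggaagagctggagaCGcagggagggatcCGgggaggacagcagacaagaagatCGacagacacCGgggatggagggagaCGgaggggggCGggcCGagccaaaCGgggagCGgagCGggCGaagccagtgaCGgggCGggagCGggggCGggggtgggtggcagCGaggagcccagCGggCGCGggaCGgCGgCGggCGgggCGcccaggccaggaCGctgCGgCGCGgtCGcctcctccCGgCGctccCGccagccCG
Lhx1: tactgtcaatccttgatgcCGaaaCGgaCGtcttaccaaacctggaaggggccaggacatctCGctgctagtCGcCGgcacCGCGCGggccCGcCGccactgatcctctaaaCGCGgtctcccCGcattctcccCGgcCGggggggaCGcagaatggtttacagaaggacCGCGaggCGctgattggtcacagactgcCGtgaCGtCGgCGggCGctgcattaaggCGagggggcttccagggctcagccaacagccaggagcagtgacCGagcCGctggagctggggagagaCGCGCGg
Nkx2-5: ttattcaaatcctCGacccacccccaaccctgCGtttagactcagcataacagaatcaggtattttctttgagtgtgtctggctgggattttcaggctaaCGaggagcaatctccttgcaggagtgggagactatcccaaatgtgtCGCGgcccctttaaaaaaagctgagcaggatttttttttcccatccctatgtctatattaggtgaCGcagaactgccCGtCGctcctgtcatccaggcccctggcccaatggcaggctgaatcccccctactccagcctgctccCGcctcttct

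Prrx1 (chr1:163313601-163313900, minus strand) held 6 CpG in its window and Nkx2-5 (chr17:26841516-26841815, minus strand) held 9. Lhx2 (chr2:38339031-38339330, plus strand) held 34 and Lhx1 (chr11:84525485-84525784, minus strand) held 31. Across 19285 promoters of genes in the table the median was 12. Over the 62 factors with a listed promoter the median was 20.5. Lhx2, present in all tumours, and Lhx1, all but absent from 2 of them, both lay above these medians. As picked genes they say nothing on CpG and level. Searched on both strands, TAATTA, a palindrome bound by many homeodomains, occurred in the Prrx1 window, in none of the other 3, and in 4.65% of all promoters. Promoters were listed for 62 of the 91 factors (68.1%), too few for a comparison of promoter content between expressed and silent factors, which is void here.

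The TALE cofactors were the only group of factors that was expressed throughout: all 7 passed CPM 1 in every tumour. Pbx3 (ENSMUSG00000038718.15, chromosome 2, 34171457 to 34373142 in mm10, minus strand) was at 53.0 CPM in T14 and 57.8 in T10, and 69.5 in T8 and 59.4 in TUN. Pbx2 (ENSMUSG00000034673.14, chromosome 17, 34591266 to 34597400 in mm10, plus strand) was at 46.7, 40.3, 37.5 and 32.6 CPM in the same order. No tumour stood far from the others in these genes, whose coefficients of variation were 11.6% for Pbx3 and 14.9% for Pbx2. Per length Pbx2 (10.8 ± 1.61 RPKM, SD, n = 4) and Pbx3 (9.81 ± 1.14 RPKM) were not separated by more than their spread. Pbx4 was lower per length, at 3.21 ± 1.05 RPKM.

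Among the Meis genes, which bind DNA together with Pbx proteins, Meis2 was at 70.0 CPM in T14 and 97.1 in T10, with 130 in T8 and 95.2 in TUN. Meis3 was at 30.1, 36.3, 35.1 and 26.9 CPM. Meis1 averaged 30.6 ± 5.0 CPM (SD, n = 4), with its highest value in T14, the tumour where Meis2 was lowest. On the RPKM scale, with 0.1 added to each value, the log2 ratio of Meis1 to Meis2 was -1.43 ± 0.55 and below 0 in 4 of 4 tumours, from -0.69 in T14 to -2.0 in T8. Meis3, at 10.1 ± 1.38 RPKM, was the most abundant Meis gene per length. The two-sided exact sign-flip test used for ratios cannot give a p below 0.125 with 4 tumours, so no ratio here is called.

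Of the CUT factors, whose homeodomain stands beside CUT domains, Cux1 and Cux2 were expressed and the 3 Onecut genes were not. Cux1 (ENSMUSG00000029705.17, chromosome 5, 136248135 to 136567490 in mm10, minus strand) was the steadiest of the abundant factors, at 169 CPM in T14 and 153 in T10, and 182 in T8 and 155 in TUN (coefficient of variation 8.15%). Gene counts do not separate the CASP protein made from the same gene. Cux2, known for neurons of the upper cortical layers, was at 42.8, 43.3, 34.0 and 33.6 CPM. The log2 ratio of Cux1 to Cux2 was 1.09 ± 0.25 on the RPKM scale and above 0 in all 4 tumours (n = 4). Onecut2, a factor of liver and of motor and retinal neurons, passed CPM 1 in T10 alone, at 1.38 CPM.

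**Figure D1:**
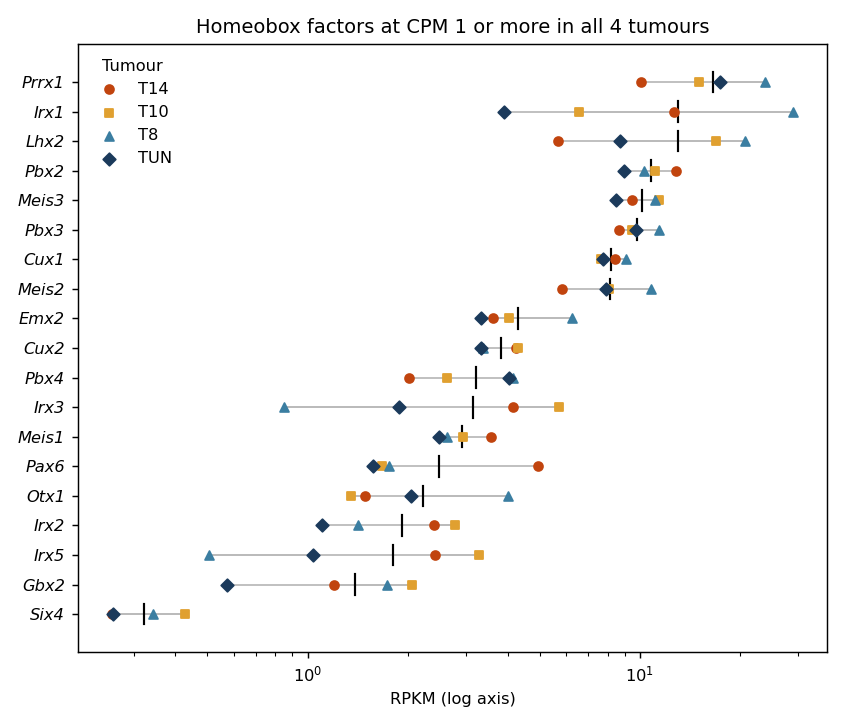
Level of 19 of the 20 homeobox factors at CPM 1 or more in all 4 tumours, as RPKM on a log axis. Each symbol is 1 tumour, the black bar is the mean, and genes run from high to low mean. Prrx1, Irx1 and Lhx2 lead on average but spread widely, while the tumours sit close together for Pbx2, Pbx3, Cux1 and Cux2.

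Prrx1 (ENSMUSG00000026586.16, chromosome 1, 163245119 to 163313710 in mm10, minus strand), a factor of limb and head mesenchyme that is also known from oligodendrocyte precursors, was at 112 CPM in T14 and 167 in T10, with 264 in T8 and 193 in TUN. Per length it averaged 16.6 ± 5.72 RPKM (SD, n = 4), the highest mean of the 91 factors. It was lowest in T14 and highest in T8, and its spread did not pass the edgeR test between tumours (adjusted p = 0.999997). With 4 tumours a test not passed does not show an even level. Its highest value was 2.37 times its lowest, against a median of 1.54 times over all expressed genes. The summed CPM of 10 oligodendrocyte precursor markers had the same lowest and highest tumour, at 10696 in T14 and 12160 in T10, and 16509 in T8 and 13788 in TUN. All 10 were expressed and none was at 0, and their part in the Prrx1 values was not tested. In bulk RNA, fewer cells of a type and less RNA per cell cannot be told apart, here or in the results that follow. Its paralog Prrx2 averaged 1.46 ± 0.693 CPM. The 10 markers of pericytes, fibroblasts and meninges, cells related to mesenchyme, summed to 495, 542, 424 and 482 CPM in the order T14, T10, T8 and TUN, with all 10 expressed and none at 0.

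Forebrain factors were present in every tumour through Lhx2, Emx2 and Otx1. Lhx2 (ENSMUSG00000000247.11, chromosome 2, 38339281 to 38369733 in mm10, plus strand), a LIM factor of the cortical primordium and eye field, was at 24.9 CPM in T14 and 74.2 in T10, with 91.1 in T8 and 38.2 in TUN. Otx1, of forebrain and midbrain, was at 8.08, 7.33, 21.8 and 11.1 CPM. Emx2, of the dorsal telencephalon, was at 10.8, 12.1, 18.8 and 9.96 CPM. All 3 were highest in T8. None passed the edgeR test between tumours, with the smallest adjusted p at Lhx2 (0.361). Emx2 shares 8.79% of its exon bases with the antisense gene Emx2os, and unless counting used strand, which is not stated, reads of the pair cannot be told apart. Emx1, the paralog of Emx2 in the cortex, had at most 2 counts in any library.

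Ventral forebrain factors among the 91 were mostly silent. The Gsx genes are not among the 91 and are given under other observations. Of Dlx1, Dlx2, Dlx5 and Dlx6, the factors of inhibitory neuron precursors, none was expressed, and of Nkx2-1, Lhx6 and Lhx8, factors of the medial ganglionic eminence, none passed CPM 1 in any tumour. Dlx6 passed CPM 1 in T14 (3.20 CPM) and T10 (1.14 CPM) and was at 0.0419 CPM in T8 and 0.402 CPM in TUN. Its neighbour Dlx5, 9.24 kb away, passed in T14 alone (1.55 CPM). Isl1, a motor neuron and striatal factor, had at most 9 counts in any library.

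Pax6 (ENSMUSG00000027168.21, chromosome 2, 105668900 to 105697364 in mm10, plus strand), a factor of eye, cortical progenitors and cerebellar granule cells, was the single expressed member of the eye, hypothalamus and pituitary group. It was at 57.6 CPM in T14 and 19.6 in T10, and 20.6 in T8 and 18.4 in TUN. T14 stood well above the other 3, which lay within a narrow range. A single tumour set apart in this way (Dixon ratio) was seen in 5 of the 44 expressed or mixed factors reported here (11.4%), beside 5.16% of all such genes. The 2 shares are not alike, since some mixed factors were counted only through the tumour set apart. In edgeR the spread of Pax6 did not pass (adjusted p = 0.616). The 10 markers of cerebellar granule neurons were all highest in T14, and summed to 2696 CPM there, 621 in T10, 162 in T8 and 154 in TUN, with no marker at 0. Their part in the Pax6 value was not tested. Six3, Six6, Vax1 and Vax2, which pattern the eye field and ventral forebrain, had at most 3 counts in any library.

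The Irx genes lie in 2 genomic clusters, and Irx1 departed from the other expressed Irx genes. Irx3 (ENSMUSG00000031734.12, chromosome 8, 91798525 to 91801916 in mm10, minus strand) was at 10.8 CPM in T14 and 14.9 in T10, with 2.22 in T8 and 4.91 in TUN. Irx5 (ENSMUSG00000031737.10, chromosome 8, 92357796 to 92361456 in mm10, plus strand), 556 kb away, was at 5.81, 7.86, 1.22 and 2.50 CPM. The log2 ratio of Irx3 to Irx5 was 0.75 in T14 and 0.79 in T10, and 0.65 in T8 and 0.80 in TUN, on the RPKM scale. Its mean was 0.75 ± 0.07 (SD, n = 4). Both genes had the same order of tumours and kept nearly the same ratio, although the highest value was 6.73 times the lowest for Irx3 and 6.47 times for Irx5. Irx6, the third gene of that cluster, was mixed, at 3.82 CPM in T14 and 2.89 in T10, with 0.126 in T8 and 1.79 in TUN, and was likewise lowest in T8. Irx3 shares 4.75% of its exon bases with the antisense gene Irx3os, which had 1 to 26 counts.

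Irx1 (ENSMUSG00000060969.8, chromosome 13, 71957921 to 71963723 in mm10, minus strand), of the other cluster, was at 30.1 CPM in T14 and 15.6 in T10, and 68.7 in T8 and 9.29 in TUN. It was highest in T8, where Irx3, Irx5 and Irx6 were lowest. It was the single expressed factor to pass the test between tumours (edgeR, adjusted p = 0.0232), and it missed the threshold without T10 (adjusted p = 0.0832), without T8 (0.999981) or without TUN (0.177). Irx2, 665 kb from Irx1, was at 7.90, 9.12, 4.65 and 3.62 CPM and, like Irx3 and Irx5, was highest in T10. The log2 ratio of Irx1 to Irx2 was accordingly uneven, at 2.35 in T14 and 1.21 in T10, with 4.26 in T8 and 1.74 in TUN (mean 2.39 ± 1.33, SD, n = 4). Irx4, a heart ventricle factor next to Irx2, was silent with at most 11 counts.

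**Figure D2:**
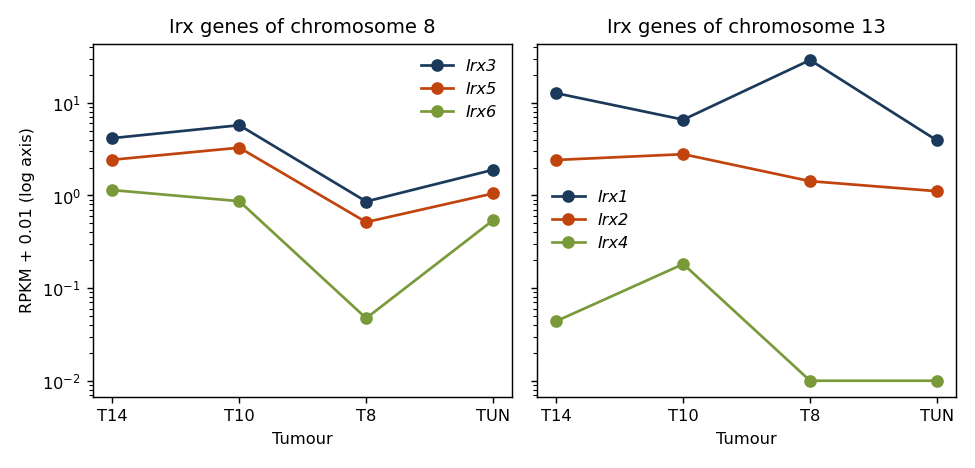
Irx genes by tumour and cluster, as RPKM + 0.01 on a log axis. Points are tumours and lines only join the values of 1 gene, since tumours have no order. Irx3 and Irx5 run in parallel with a dip in T8, where Irx1 peaks.

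Factors within 1000 kb of each other made 23 pairs, a distance chosen after the values were seen. In 11 pairs both genes fell in the same class, and in 8 of these both were silent. The number of such pairs that the class sizes alone would give was not computed. In 8 of the 23 pairs neither gene was silent, and some of those are also among the 11. In 2 of those 8 (Irx3 with Irx5 and Dlx5 with Dlx6) both genes were highest in the same tumour. In the other 6 of those the highest tumour differed. Six4, a factor of muscle and placodes, was expressed at 3.49 ± 0.880 CPM (SD, n = 4) and was highest in T10.

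To ask which factors differed between tumours more than genes of like abundance, a single-group edgeR model was fitted to all 15681 genes with a mean of 10 or more counts. The residual deviance of each gene was tested at an adjusted p of 0.05. Of all genes tested 755 passed (4.81%). Of the 51 homeobox factors tested 13 passed (25.5%). Factors that are low in some tumours entered the test only through the tumours where they are high, so this count is a description of those factors and supports no statement about the 91. With a filter that asks every library to be above the limit, 26 factors were tested and 2 passed, Irx1 and Barhl2, against 4.34% of 14266 genes. The other 11 of the 13 did not meet that filter, so the adjusted p of each is likewise a description. Without T10 8 factors passed, without TUN 6, and as dispersion outliers in DESeq2 4. Of the 13 factors T14 was highest for 6, T10 for 6 and T8 for 1. Of all 755 genes that passed, T14 was highest for 511, T10 for 196, T8 for 23 and TUN for 25. As shares of all genes tested these were 3.26%, 1.25%, 0.147% and 0.159%. TUN was lowest for 10 of the 13 factors, and the same count over all genes was not made.

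**Figure D3:**
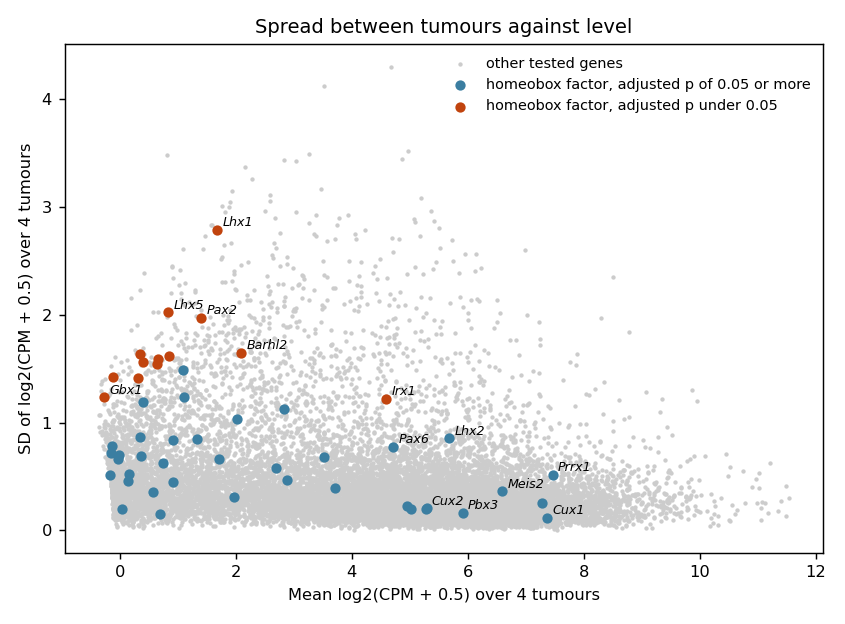
Spread between tumours against level for all 15681 genes tested, as SD and mean of log2(CPM + 0.5) over the 4 tumours. Grey points are other genes, and coloured points are the 51 homeobox factors tested, in red where the adjusted p was under 0.05. Abundant factors such as Cux1 and Pbx3 lie low in the cloud, while Lhx1, Lhx5 and Pax2 lie high.

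Lhx1, Lhx5, Tlx3, Pax3, Msx2 and Barhl2 passed the test and were highest in T14. All but Barhl2 entered it on a mean carried by their high tumours, so their p-values only describe these counts. Lhx1 (ENSMUSG00000018698.15, chromosome 11, 84518284 to 84525535 in mm10, minus strand), a LIM factor of Purkinje cells and spinal interneurons, was at 32.5 CPM in T14 and 6.84 in T10, and 0.293 in T8 and 0.0447 in TUN (733, 168, 7 and 1 counts). The spread of Lhx1 had the smallest adjusted p of the 51 factors tested (edgeR, 5.56e-10) and passed without each tumour in turn. Lhx5, its partner in Purkinje cells, had 236, 50, 5 and 0 counts, or 10.5 CPM in T14, 2.04 in T10 and 0.209 in T8 (edgeR, adjusted p = 2.45e-05). Both LIM factors thus had the same order of tumours. A count of 0 in TUN allows up to 0.134 CPM. The 10 Purkinje cell markers had T14 as their highest tumour in 10 of 10 cases. They summed to 4631 CPM in T14 and 743 in T10, with 410 in T8 and 316 in TUN, and at CPM 1 stood 10, 10, 7 and 6 of them, with none at 0. Whether those cells account for the Lhx1 and Lhx5 values was not tested.

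Tlx3, a factor of excitatory dorsal horn and hindbrain neurons, had 113 counts in T14 and 30 in T10, and 1 in T8 and 0 in TUN (edgeR, adjusted p = 0.00021). Pax3, of dorsal progenitors, had 136, 35, 11 and 0 counts (edgeR, adjusted p = 0.00206). Msx2, a BMP-responsive factor of the dorsal midline and skull, had 137, 29, 11 and 1 counts (edgeR, adjusted p = 0.00929). All 3 were highest in T14 and lowest in TUN. Pax3 missed the threshold without T14 (adjusted p = 0.117) or TUN (0.277), as did Msx2 (0.579 and 0.230). Barhl2, of diencephalic, spinal and retinal neurons, was at 16.3 CPM in T14 and 2.81 in T10, with 5.07 in T8 and 0.580 in TUN (edgeR, adjusted p = 0.0354). It was not called without T14 (adjusted p = 0.961) or TUN (0.495). Barhl1, of cerebellar granule cells, was at 6.84 CPM in T14 and 2.77 in T10, and 0.587 in T8 and 0.268 in TUN, and did not pass (adjusted p = 0.0829).

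Pax2, Pax8, Gbx1, Lmx1b and Otx2 passed the test and were highest in T10. None of them met the filter on every library, so their p-values too are descriptive. Pax2, of the midbrain to hindbrain boundary and of inhibitory interneurons, was at 6.44 CPM in T14 and 9.77 in T10, with 0.587 in T8 and 0.134 in TUN (edgeR, adjusted p = 0.00269). Pax8, which is closely related to Pax2, had 5 counts in T14, 84 in T10 and 0 in both T8 and TUN (edgeR, adjusted p = 5.86e-05). Gbx1, of spinal and hindbrain interneurons, had 61 counts in T10 and at most 2 in any other tumour (edgeR, adjusted p = 0.000577). Pax8 and Gbx1 were therefore nearly limited to T10, unlike Pax2, which T14 shared. Lmx1b, of serotonergic and dopaminergic neurons, had 23 counts in T14 and 101 in T10, and 2 in both T8 and TUN (edgeR, adjusted p = 0.0112). Calls were lost for Pax2 without TUN (adjusted p = 0.119), and for Lmx1b without T8 (0.0606) or TUN (0.0617). Without T10 the test does not reach Pax8, Gbx1 or Lmx1b, which then have a mean under 10 counts.

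Otx2, known from choroid plexus, retina and midbrain, was at 4.13 CPM in T14 and 4.19 in T10, with 0.377 in T8 and 0.0447 in TUN (edgeR, adjusted p = 0.0129). The call was lost without TUN (adjusted p = 0.400). T14 and T10 were alike for Otx2. The 10 choroid plexus and ependyma markers summed to 64.1 CPM in T14 and 637 in T10, and 52.1 in T8 and 15.0 in TUN, with 1 of them at 0 in TUN. Ttr alone, the transthyretin gene, gave 579 CPM of the sum in T10, and without it the sums were 30.1, 58.6, 15.2 and 11.6 CPM. T10 was highest for 7 of the 10 markers and T14 for 3. Their part in the Otx2 values was not tested. Otx1 ran otherwise. The log2 ratio of Otx1 to Otx2 was 0.27 in T14 and 0.12 in T10, with 4.29 in T8 and 4.24 in TUN (RPKM scale, mean 2.23 ± 2.35, SD, n = 4). Otx2 was at 0.111 RPKM in T8 and 0.0131 RPKM in TUN. The size of the ratio in T8 and TUN therefore depends strongly on the 0.1 added to each value. Gbx2, which meets Otx2 at the midbrain to hindbrain boundary, was expressed at 2.62, 4.48, 3.77 and 1.25 CPM in T14, T10, T8 and TUN. Its values are uncertain, since 43.5% of its exon bases are shared with an antisense gene, D130058E05Rik, that had 38 to 165 counts.

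Beside these values, some marker lists differed between tumours in edgeR and others did not pass. The 11 pan-neuron markers summed to 3569 CPM in T14 and 2859 in T10, and 410 in T8 and 248 in TUN. Astrocyte markers summed to 7220, 4627, 2223 and 2124 CPM and mature oligodendrocyte markers to 4097, 5437, 1329 and 1304 CPM. The test was passed by 10 of 11 pan-neuron, 6 of 10 astrocyte and 7 of 10 mature oligodendrocyte markers, and none of them was at 0. Of the 10 endothelial markers (330, 278, 280 and 257 CPM) and the 10 microglia markers (785, 619, 728 and 859 CPM) none passed in edgeR, with 1 endothelial and 0 microglia markers at an unadjusted p under 0.05. The 10 mitosis genes summed to 763 CPM in T14 and 764 in T10, with 1385 in T8 and 1814 in TUN. None of them passed in edgeR, with 2 at an unadjusted p under 0.05, and none of these 3 lists held a dispersion outlier in DESeq2. With the filter on every library 1 endothelial marker, Slco1a4, passed. The part of all these lists in the levels of the mixed factors was not tested. Summed over all 14 midbrain and hindbrain factors, CPM was 43.5 in T14 and 41.3 in T10, and 12.8 in T8 and 4.24 in TUN. Barhl2, also known from other regions as given above, made 16.3, 2.81, 5.07 and 0.580 CPM of these sums. The 7 TALE cofactors summed to 402, 444, 477 and 369 CPM and the CUT factors to 212, 198, 216 and 189 CPM. Dorsal and spinal factors summed to 114, 64.1, 80.1 and 21.8 CPM. Eye, hypothalamus and pituitary factors summed to 63.7, 26.1, 21.4 and 19.3 CPM. Telencephalon factors summed to 50.5, 96.7, 133 and 60.9 CPM. Factors of muscle, skeleton, viscera and placodes summed to 129, 185, 276 and 203 CPM.

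**Figure D4:**
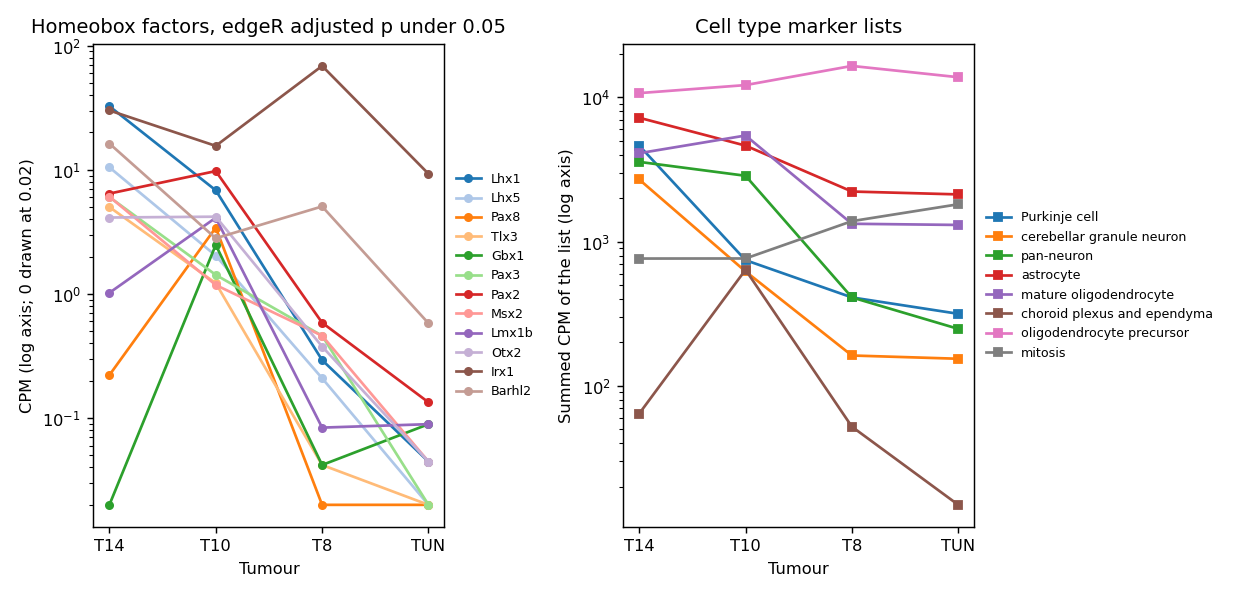
Left, CPM of 12 of the 13 homeobox factors with an adjusted p under 0.05, on a log axis. Right, summed CPM of marker lists on a log axis. Points are tumours and lines only join values of 1 gene or list. Most of the factors are high in T14 or T10 and low in TUN, while oligodendrocyte precursor markers are high in all 4 tumours.

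For the 28 mixed factors the highest tumour was T14 in 17 cases and T10 in 9. The same count over all 1829 mixed genes was not made, so no trait of the factors is read from it. Of all 755 genes past the edgeR test, 511 were highest in T14 and 196 in T10. Six2 was highest in TUN. CPM 1 was reached in 1 tumour by 8 of them, in 2 tumours by 13 and in 3 tumours by 7. Nkx6-1, a factor of ventral progenitors and motor neurons, missed the expressed class narrowly in T8, at 1.38 CPM in T14 and 1.10 in T10, with 0.964 in T8 and 1.03 in TUN. Six2, of kidney progenitors, was at 0.355, 0.366, 0.712 and 1.16 CPM in the same order. Neither passed the test between tumours (edgeR, adjusted p = 0.999997 each). Alx4, a factor of skull and limb, averaged 1.61 ± 1.05 CPM, and Lmx1a, of the roof plate and dopaminergic neurons, averaged 0.880 ± 0.518 CPM.

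**Figure D5:**
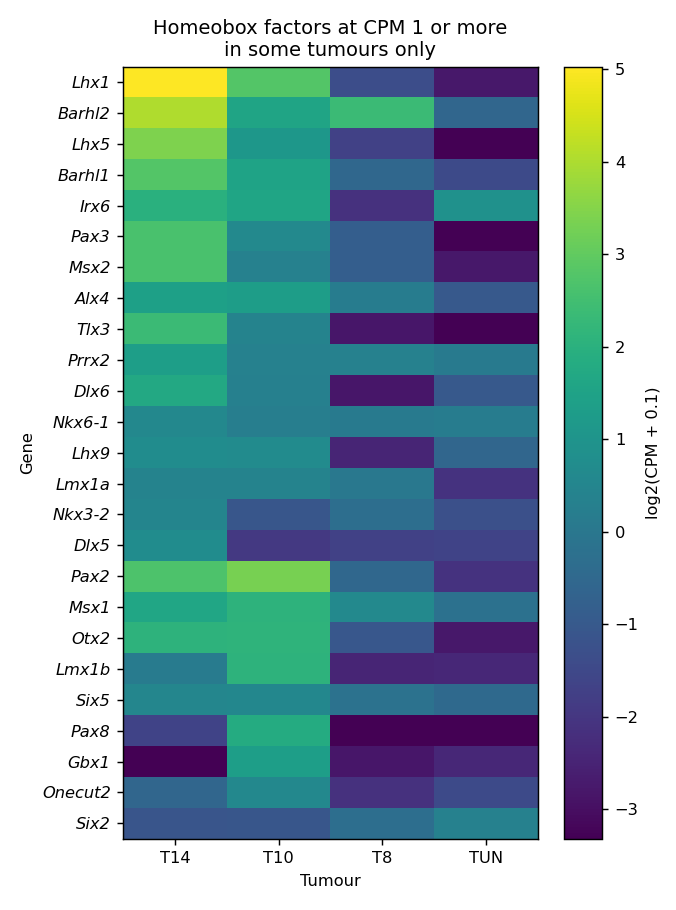
Heatmap of 25 of the 28 homeobox factors at CPM 1 or more in some tumours only, as log2(CPM + 0.1), grouped by the tumour with the highest value. The bright cells lie mainly in T14 and T10, and Lmx1b, Pax8 and Gbx1 are bright in T10 only or mostly.

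Exon bases shared with another gene were found in 24 of the 91 factors, 7 of them expressed. Of the 13 factors past the test these were Lhx5 (2.57% of its exon bases) and Pax8 (6.06%, with a gene at 0 counts in all 4 tumours).

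The 43 silent factors reached at most 0.977 CPM and 23 counts in any library. Of these, 22 had 3 counts or fewer in each library, and 7 had 0 counts in all 4, namely Nkx1-1, Nkx2-3, Nkx2-6, Vax2, Pitx1, Pax4 and Alx1. A count of 0 allows up to 0.122 to 0.134 CPM, a limit that covers counting error only. Silent factors made up 17 of the 27 factors of muscle, skeleton, viscera and placodes, such as the gut and heart factors Nkx2-3 and Nkx2-5 and the sclerotome factors Pax1 and Pax9. They also made up 9 of the 12 factors of eye, hypothalamus and pituitary, and 7 of the 12 of the telencephalon. Among midbrain and hindbrain factors 3 of 14 were silent, Nkx2-9, Phox2a and Pax5. Closest under the limit were Nkx2-9 and Pax5, both at 0.977 CPM in T14. Closest above it was Six2, mixed through 1.16 CPM in TUN. At the border of the expressed class lay Irx5, at 1.22 CPM in T8 inside it, and Prrx2, at 0.982 CPM in TUN outside it.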

How the data were processed

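Tumour RNA was sequenced as polyA libraries (TruSeq RNA kit, HiSeq2500), per the labels' protocols. The deposited table holds raw read counts per gene, made by the authors with STAR and featureCounts on mm10 (tools and build per the submitters' processing notes), with GENCODE vM8 genes. Tool versions and the strand setting were not given in the sources used here, nor was the handling of multi-mapped reads. Symbols were matched for 46451 of 46946 identifiers.

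The 4 columns match no sample title one to one and were used as tumours of 1 group. No label says that they came from separate animals, so p-values measure only the spread between these samples. Counts were scaled with TMM in edgeR 4.0.16 (R 4.3.3) to CPM and, with the deposited merged exon length, to RPKM. Library totals were 21664889 to 24369339 counts. A detection limit is 3 counts, which covers counting error only.

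With 1 group there is no contrast for a quasi-likelihood test. Instead edgeR was fitted with an intercept alone, using trended dispersions, to the 15681 genes with a mean of 10 or more counts. Each residual deviance was referred to a chi-square law with 3 degrees of freedom, with Benjamini-Hochberg adjustment. The filter is on the mean because one on every library drops regional factors. The procedure was tested on simulated data, where most large folds in 1 tumour were recovered and most small ones were not. Every simulated gene had the same dispersion, unlike the genes of the data. The simulation therefore cannot show how often genes with a larger dispersion of their own are called. Ratios used log2(RPKM + 0.1). Alternatives were DESeq2 1.42.0 size factors and dispersion outliers, other filters, thresholds and dispersions, and leaving out each tumour. Counts and fits cover all 91 factors, of which 4 are not reported here by name. Named genes could be any expressed or mixed factor, with values per tumour for those past the test, mixed ones at CPM 5 or more and the 10 most abundant. Factors, lists and rules were chosen with earlier results of these data known, and further genes named were picked after their values were seen.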

Additional observations from a re-analysis of the deposited data

Results flagged for a closer look

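In 5 of the 44 expressed or mixed homeobox factors reported here (11.4%) 1 tumour lay apart from the other 3, with a gap to its nearest neighbour above Dixon's 95% critical share of the range of the 4 CPM values. Chance alone sets apart about 5% of groups of 4, and among all 15074 expressed and mixed genes the share was 5.16%. These shares cannot be weighed against each other. Dlx5, Pax8 and Gbx1 reached CPM 1 only in the tumour set apart, and so were counted through it. Mixed genes were also more frequent among the factors (28 mixed, 20 expressed) than in the whole table (1829 mixed, 13245 expressed). T14 was apart and high for Pax6 (57.6 CPM), Prrx2 (2.49 CPM) and Dlx5 (1.55 CPM). T10 was apart and high for Pax8 (3.42 CPM) and Gbx1 (2.48 CPM). The causes were not tested.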

How the results depend on the processing

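Of 91 factors, 20 were expressed and 43 silent, against 16 to 25 and 34 to 59 under other thresholds (CPM 0.5 or 2, RPKM 1) and scalings, and 20 to 24 and 43 to 47 when 1 tumour was left out. The 13 factors past the edgeR test numbered 13 with DESeq2 size factors and with library totals, 14 without a filter, 17 at a common dispersion, 2 with the filter on every library and 4 as DESeq2 dispersion outliers (Lhx1, Lhx5, Pax8 and Tlx3). They numbered 6 to 11 when 1 tumour was left out, with 8 without T10 and 6 without TUN. Over all genes 755 passed, against 741 and 742 with the other scalings, 732 without a filter, 1008 at a common dispersion, 619 with the filter on every library, 138 in DESeq2 and 484 (without TUN) to 555 (without T10) with 1 tumour left out. At a common dispersion Irx1 was lost (adjusted p = 0.117), and Barhl1, Dlx5, Dlx6, Irx6 and Nkx2-9 passed. Fewer samples and fewer genes tested are part of the construction of these settings, and the causes were not tested further. Without length correction the mean log2 ratios were 2.10 for Cux1 to Cux2 (1.09 with it) and 0.89 for Irx3 to Irx5 (0.75). With pseudocount 1 they were 0.51 for Irx3 to Irx5 and 3.52 for Lhx2 to Lhx9 (5.95 with 0.1). The mean log2 ratio of Otx1 to Otx2 was 3.38 without length correction, against 2.23 with it. With pseudocount 1 that mean was lower than with 0.1. No reported ratio changed sign. Of the pairs listed, Dlx1 to Dlx2 was too low to be used. No paired analysis was possible because the samples form 1 group. Depth limits statements on silent factors to levels above 0.122 to 0.134 CPM.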

Other observations

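Homeobox factors of other families, from a list of 58 genes in the table, were expressed in 27 cases, mixed in 11 and silent in 20. By CPM, which is not corrected for length, Zeb1, a repressor of epithelial genes, was highest at 721 ± 97.1 CPM (SD, n = 4). The POU factor Pou3f3 followed at 429 ± 54.6 CPM and Zeb2, which is needed for myelination, at 230 ± 14.1 CPM. Per length Zeb1 (71.3 RPKM) and Pou3f3 (57.9 RPKM) still led. Zeb2 (11.5 RPKM) then lay below several others, among them Gsx1 (50.5 RPKM) and Pou3f1 (44.3 RPKM). Between tumours 7 of 38 tested passed in edgeR (En2, Uncx, Shox2, Lbx1, Gsx2, Zfhx4 and Pou4f1, named after their values were seen), beside 4.81% of all genes. All 7 were mixed and several entered the test only through the tumours where they are high, so the count is a description. With the filter on every library 29 were tested and 1, En2, passed. En2, of the midbrain to hindbrain boundary, was at 83.7 CPM in T14 and 8.75 in T10, with 0.712 in T8 and 0.580 in TUN (edgeR, adjusted p = 1.11e-15). Uncx, of somites and midbrain neurons, was also highest in T14, at 14.9 CPM there and 2.40 in T10, with 0.335 in T8 and 0 in TUN (edgeR, adjusted p = 3.24e-06). Shox2, of hindbrain and heart, was at 4.97 CPM in T10 and at most 0.377 CPM in any other tumour (edgeR, adjusted p = 0.000485). Lbx1, of dorsal horn neurons, was at 3.86 CPM in T14 and 7.53 in T10, with 0.209 in T8 and 0.0447 in TUN (edgeR, adjusted p = 0.000867). Shox2 and Lbx1 were highest in T10, as were Pax8 and Gbx1. Gsx2, of the lateral ganglionic eminence, was highest in TUN instead, at 1.46 CPM in T14 and 2.56 in T10, with 0 in T8 and 8.08 in TUN (edgeR, adjusted p = 0.002). The oligodendrocyte lineage factors left out above were expressed in every tumour, with Nkx2-2 at 13.3 ± 1.61 CPM and Nkx6-2 at 10.7 ± 6.60 CPM.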
